A study of Mus musculus with 31 samples.

Results

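The nuclear factor I (NFI) family consists of 4 genes in the mouse, Nfia, Nfib, Nfic and Nfix, and all 4 were measured among the 18194 genes of this array data set. Each gene was followed through 1 probe set, the brightest on average over the 31 arrays among those with a single gene symbol. It was 1456087_at for Nfia, 1427680_a_at for Nfib, 1435527_at for Nfic and 1436363_a_at for Nfix. The family has 23 such probe sets of 34958 in all, with 6 for Nfia, 7 for Nfib, 5 for Nfic and 5 for Nfix. Nfia and Nfib lie on chromosome 4, Nfic on chromosome 10 and Nfix on chromosome 8.

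NFI proteins are site-specific transcription factors that bind DNA as dimers through a conserved N-terminal domain, and that can activate or repress genes. They prefer a palindrome in which the short core TTGGC faces its own complement, and they also bind a single core with lower affinity. In the developing brain NFIA and NFIB drive the switch of neural progenitors to glial fates, and family members are needed for the maturation of cerebellar granule neurons, the lineage from which Sonic hedgehog medulloblastoma arises. Nfic is known from tooth root development, and Nfix from the quiescence of neural stem cells and from muscle development.

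The study set neural stem cells (NSC) of the young mouse brain beside cancer stem cells (CSC) of mouse medulloblastoma, a tumour of the cerebellum, all of strain C57BL/6. NSC came from wild-type mice at postnatal day 7, from the wall of the IV ventricle, the cerebellar white matter and the subventricular zone (SVZ) of the forebrain, with 3 biological replicates each. The p53 wt lines are CSC from 8 medulloblastomas that arose in Ptch heterozygous, p53 wild-type mice, and each line has a matched piece of tissue of the same tumour. A further set of CSC came from tumours 27 and B, 2 medulloblastomas of mice that were heterozygous for p53 as well as Ptch, with 3 technical replicates each that were averaged (here p53 het cultures). The age of the tumour mice is not given in the sources used here. Every culture was a neurosphere culture with EGF and FGF2, and the tumour tissue was not cultured. Ptch heterozygosity is shared by all tumour samples and by no NSC, and a p53 het genotype was present in no more than the 2 tumours.

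Levels are log2 intensities after robust multi-array averaging (RMA), and a difference of 1 is a 2-fold change. The array medians lay between 3.17 and 3.32. As a guide to the background of unexpressed genes, the Y-linked Eif2s3y, Kdm5d and Uty gave 0.716 to 1.57 in 15 samples without Y signal. These samples were chosen for Eif2s3y under 2, which bounds the value of that gene. Microglia markers had means from 1.10 (Ptprc) to 3.32 (Csf1r) in the p53 wt lines, so other probe sets may have a higher background. Marker levels were averaged over the genes of a list in each sample. Neural stem cell markers (5 genes: Sox2, Nes, Prom1, Msi1, Vim) were at 8.24 to 8.62 in the 9 NSC cultures and 7.71 to 8.81 in the p53 wt lines. In the p53 het cultures they were at 7.02 and 7.29, and in the tissue at 6.55 to 7.22. Granule neuron precursor markers (4 genes: Atoh1, Zic1, Barhl1, Neurod1) were at 9.01 to 9.50 in the tissue and at 2.86 to 4.33 in all cultures. Sample names carry date-like marks, and those of the p53 het arrays were shared with no other group. The NSC shared no mark with any tumour sample, so mark and group cannot be told apart between NSC and tumour groups.

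3 promoter windows are shown because the 3 genes fall among those described below: Nfia itself, and Fabp7 and Hepacam, a pair of glial genes linked to NFI. Each window runs from 250 bases before to 50 bases after an annotated start, on the gene's own strand, from RefSeq on build GRCm38.p6. The core TTGGC, or GCCAA where the core lies on the other strand, is in capitals.
Nfia, chr4:97581693-97581992, plus strand, 0 cores: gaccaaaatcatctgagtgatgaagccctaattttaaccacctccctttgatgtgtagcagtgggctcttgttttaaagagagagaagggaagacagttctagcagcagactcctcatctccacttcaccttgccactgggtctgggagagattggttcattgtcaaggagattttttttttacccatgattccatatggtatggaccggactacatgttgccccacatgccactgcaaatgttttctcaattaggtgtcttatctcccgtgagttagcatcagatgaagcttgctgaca
Fabp7, chr10:57784673-57784972, plus strand, 1 core: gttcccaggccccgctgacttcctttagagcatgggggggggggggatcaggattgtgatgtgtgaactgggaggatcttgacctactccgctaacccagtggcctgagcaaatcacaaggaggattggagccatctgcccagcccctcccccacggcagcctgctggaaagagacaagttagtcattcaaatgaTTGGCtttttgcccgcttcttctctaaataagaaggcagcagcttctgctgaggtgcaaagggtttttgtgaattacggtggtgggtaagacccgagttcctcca
Hepacam, chr9:37367356-37367655, plus strand, 2 cores: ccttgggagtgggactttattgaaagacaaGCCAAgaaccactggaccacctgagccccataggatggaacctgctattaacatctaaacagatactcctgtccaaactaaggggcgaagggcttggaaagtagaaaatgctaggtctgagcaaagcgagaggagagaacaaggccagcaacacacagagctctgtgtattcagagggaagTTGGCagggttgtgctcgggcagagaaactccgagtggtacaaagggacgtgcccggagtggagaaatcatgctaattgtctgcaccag

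A core is common in such windows. TTGGC or GCCAA occurred in 46.7% of 32851 mouse promoter windows of the same length, and 14.4% held 2 or more. The full palindrome, TTGGC and GCCAA with 5 bases between them, occurred in 12 windows (0.0365%), and in none of the windows of the family or of the linked genes described below. Of the 4 members, Nfia, Nfic and Nfix have windows in the table (6 in all), and 3 of these, all of Nfix, held a core. The 12 glial genes linked to NFI had 13 windows, from 10 of the genes, and 9 of the 13 held at least 1 core. In the other lists of linked genes, a core was held by 3 of 9 windows of regulators and partners. It was held by 3 of 5 windows of granule neuron genes and 2 of 2 of genes repressed through NFI. Whether any list differs from all windows was not tested. The core of Fabp7 starts at -55 relative to the annotated start, and those of Hepacam at -220 and -39. A match of letters is a description and does not show that the factor binds there.

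Across the whole series, Nfia and Nfib had the same highest group, tumour tissue, and the same lowest group, the p53 het cultures, and neither Nfic nor Nfix had both. Mean Nfia levels ran from tumour tissue (10.53 ± 0.27, SD, n = 8) through cerebellar NSC (9.58 ± 0.17, n = 3), IV ventricle NSC (9.49 ± 0.15, n = 3), p53 wt lines (9.47 ± 0.26, n = 8) and SVZ NSC (9.21 ± 0.087, n = 3) down to the p53 het cultures (7.95 ± 0.31, n = 2). Tissue did not overlap with its nearest neighbour in this order, nor did the p53 het cultures with theirs, while the 4 groups in between overlapped from one to the next. For Nfib the order was tissue (10.54 ± 0.24), IV ventricle NSC (9.30 ± 0.38), cerebellar NSC (9.30 ± 0.12), SVZ NSC (9.03 ± 0.16), p53 wt lines (8.78 ± 0.21) and p53 het cultures (7.59 ± 0.75), again with gaps at the top and at the bottom alone. Nfic was highest in the p53 het cultures (7.76 ± 0.46) and lowest in the p53 wt lines (6.94 ± 0.35), and every neighbouring pair of groups overlapped. Nfix was highest in tissue (9.50 ± 0.34) and lowest in SVZ NSC (8.79 ± 0.18), also with overlap between all neighbours. Overlap is given here and below as a description, and the share of all genes without overlap was not counted.

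**Figure D1:**
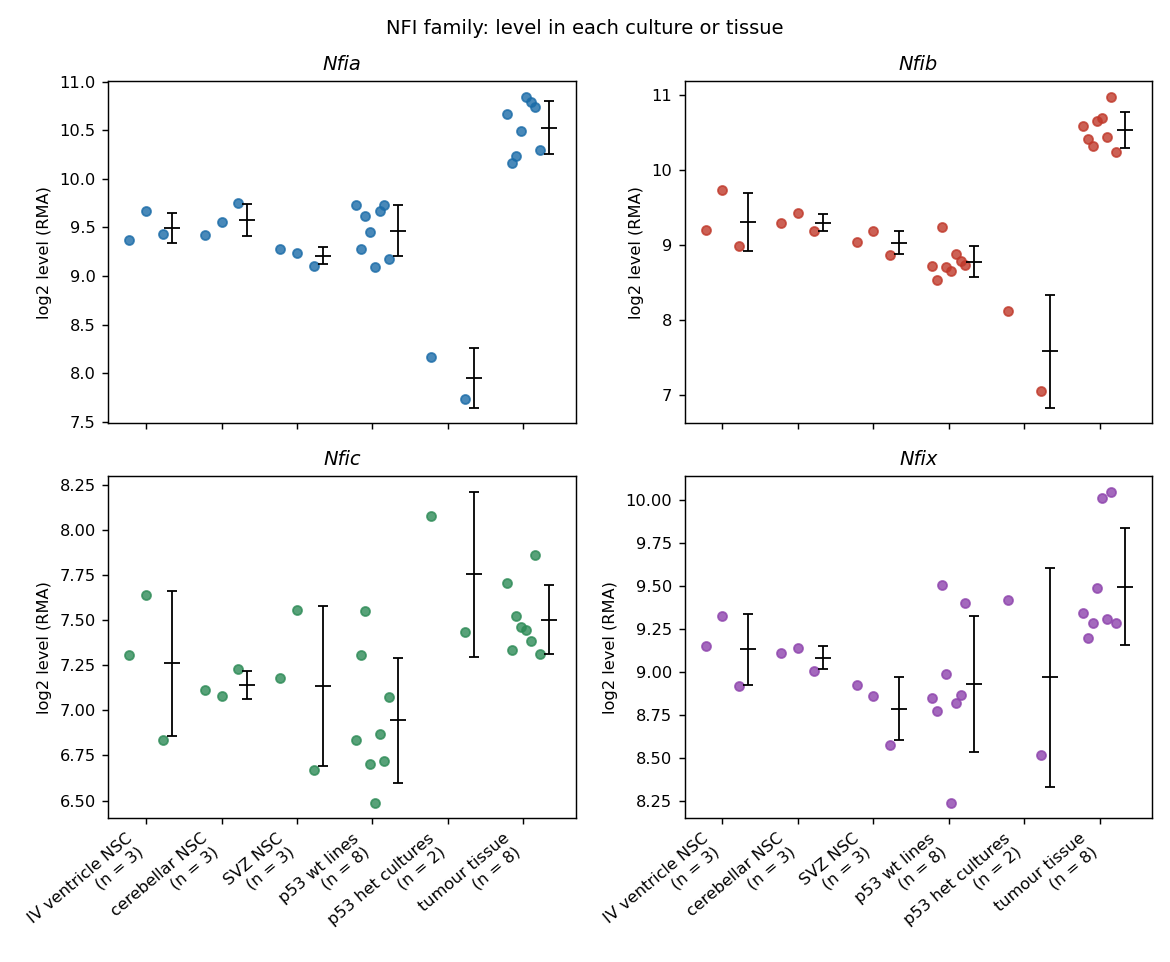
Log2 level (vertical axis) of each NFI gene in each culture or tissue, by group; each point is 1 sample, the p53 het points are means of 3 technical replicates, and the black bar gives the group mean with 1 SD. The 8 tissues lie above all other samples for Nfia (10.16 to 10.85) and Nfib (10.23 to 10.98), and the 2 p53 het cultures lie below all others for both.

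The first comparison asks whether stem cells of the hindbrain and of the forebrain differ in NFI expression. No member passed the test in any of the 3 regional comparisons. Nfia lay at 9.38, 9.67 and 9.43 in the 3 IV ventricle cultures, at 9.42, 9.55 and 9.75 in the 3 cerebellar cultures and at 9.27, 9.24 and 9.11 in the 3 SVZ cultures. The SVZ cultures were below all hindbrain cultures for this gene. The log2 difference was 0.37 ± 0.12 (SE) between cerebellar and SVZ cultures (limma, Benjamini-Hochberg adjusted p = 0.213) and 0.28 ± 0.12 between IV ventricle and SVZ cultures (limma, adjusted p = 0.488).

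Nfix, a factor linked to stem cell quiescence, had values of 9.11, 9.14 and 9.01 in cerebellar cultures and 8.92, 8.86 and 8.58 in SVZ cultures, without overlap. Its difference of 0.30 ± 0.13 had an adjusted p of 0.357 (limma). Between IV ventricle and SVZ it was 0.34 ± 0.13 (limma, adjusted p = 0.418), with overlap. Outside the family, Sox9, Gfap and Vim did not overlap between cerebellar and SVZ cultures either, and none of them was called. Nfib differed by 0.27 ± 0.18 in both comparisons with the SVZ, and Nfic by 0.0067 and 0.13, with groups that overlapped. Between the IV ventricle and the cerebellum the differences lay between -0.086 (Nfia) and 0.12 (Nfic). limma called 0.764% of 18194 genes between IV ventricle and SVZ cultures, 1.1% between cerebellar and SVZ cultures and 0% between IV ventricle and cerebellar cultures, where 559 genes had an unadjusted p under 0.05. The intervals of the members reach 0.64 (Nfia and Nfix against the SVZ) and 0.67 (Nfib).

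The second comparison set the 8 p53 wt lines against the 6 hindbrain NSC cultures (both hindbrain regions weighted equally). 1 member of 4 was called, where 9.56% of all genes were. Nfib had levels of 8.53 to 9.24 in the lines (median 8.73) and 8.98 to 9.73 in hindbrain NSC (median 9.25). It was lower in the lines by a log2 difference of -0.52 ± 0.15 (1.43-fold, limma, adjusted p = 0.039), and the groups overlapped, since line 92 lay at 9.24 and the other 7 lines at 8.88 or below. This call is a fragile one. Lines and NSC share no date mark, so a block on the mark cannot separate it from the group. It was lost in 19 of 27 alternatives, among them the random block on the date mark (-0.53, adjusted p = 0.107), each hindbrain region alone as reference (-0.52 for both), the tumours of each date mark alone (-0.50 and -0.54) and the mean of all probe sets (-0.23). Of the 7 Nfib probe sets 5 were lower and 2 of these were called, where 8.18% of all single-symbol probe sets were.

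Nfia lay at 9.09 to 9.73 in the lines and 9.38 to 9.75 in hindbrain NSC, a difference of -0.065 ± 0.12 with an interval from -0.31 to 0.18. Nfix differed by -0.18 ± 0.17 (interval -0.54 to 0.19) and Nfic by -0.26 ± 0.18 (interval -0.64 to 0.12). Lines and hindbrain cultures overlapped for these 3 genes. Within the same arrays, Nfib was lowered relative to Nfia by 0.46 (exact permutation test over 8 and 6 samples, two-sided, p = 0.00599, adjusted over 18 such tests p = 0.0352, smallest p possible 0.000333). It was lowered relative to Nfix by 0.34 (exact permutation test, p = 0.0273, adjusted p = 0.0447), a difference that turned to 0.13 in the other direction with the mean of all probe sets.

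In the p53 het cultures, from the tumours of p53 heterozygous mice, Nfia and Nfib were lower and Nfic was higher than in the p53 wt lines. Nfia was 8.19, 8.17 and 8.15 in the 3 technical replicates of tumour 27 and 7.84, 7.83 and 7.53 in those of tumour B. All of these lie below the lowest p53 wt line (9.09) and the lowest NSC culture (9.11). The log2 difference from the p53 wt lines was -1.52 ± 0.17 (2.86-fold lower, limma, adjusted p = 3.9e-06).

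Nfib was 8.14, 7.92 and 8.30 in tumour 27 and 7.18, 7.10 and 6.89 in tumour B, again below the lowest p53 wt line (8.53). It was lower than in the p53 wt lines by -1.19 ± 0.22 (2.29-fold, limma, adjusted p = 0.000638). Tumour B carries much of this difference: without it the value was -0.66 (limma, adjusted p = 0.0582), and without tumour 27 it was -1.72. Nfia kept its call without either tumour (-1.30 without B and -1.73 without 27).

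Nfic went the other way. Its technical replicates lay at 7.91, 7.71 and 8.62 in tumour 27 and at 7.24, 7.48 and 7.57 in tumour B, against 6.49 to 7.55 in the p53 wt lines. The mean of tumour B (7.43) falls within the range of the lines and that of tumour 27 (8.08) above it. The difference was 0.81 ± 0.26 (1.75-fold higher, limma, adjusted p = 0.03), and it lost its call without tumour 27 (0.49, adjusted p = 0.412) and in 5 other of 22 alternatives.

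Nfix was 9.57, 9.17 and 9.53 in tumour 27 and 8.62, 8.59 and 8.35 in tumour B. The means of both (9.42 and 8.52) fall within the range of the p53 wt lines (8.24 to 9.51). The difference of Nfix was 0.039 ± 0.25 (limma, adjusted p = 0.944), with an interval from -0.50 to 0.57. All 4 members had a higher mean in tumour 27 than in tumour B. The SD over the technical replicates of a tumour was 0.0167 to 0.479. It does not measure the spread between tumours, and the replicates of a tumour did not all share a date mark. A difference between the 2 tumours was not tested.

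Thus 3 members of 4 passed between p53 het and p53 wt cultures, 2 lower and 1 higher, where 26.3% of all genes did. Against hindbrain NSC, a comparison that shares the p53 het cultures, Nfia differed by -1.58 ± 0.18 (limma, adjusted p = 3.48e-06) and Nfib by -1.71 ± 0.23 (adjusted p = 2.65e-05), while Nfic (0.55, adjusted p = 0.156) and Nfix (-0.14, adjusted p = 0.778) were not called. That made 2 of 4 members, where 26.8% of all genes passed. A group of 2 tumours is assumed here to vary like the other cultures. Its SD was above that of the p53 wt lines for each member. It was 0.31 against 0.26 for Nfia, 0.75 against 0.21 for Nfib, 0.46 against 0.35 for Nfic and 0.64 against 0.39 for Nfix. Where the spread of this group is wider than assumed, the SE and p-values given for it are too small. Genotype and the date marks of the p53 het arrays cannot be told apart. Nfia remained at -1.57 against the 4 lines of one date mark and at -1.46 against the 4 lines of the other.

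The members were also set against each other within the same arrays. Between p53 het and p53 wt cultures, the difference of Nfia was below that of Nfic by 2.33 and below that of Nfix by 1.56, and the difference of Nfib was below that of Nfic by 2.00 and below that of Nfix by 1.23. Nfic and Nfix differed from each other by 0.77. Each of these 5 had the smallest p that 2 against 8 samples allow (exact permutation test, two-sided, p = 0.0222, adjusted p = 0.0422). Nfia and Nfib differed by -0.32 (exact permutation test, p = 0.156, adjusted p = 0.2), and with the mean of all probe sets that difference turned to 0.057.

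The other probe sets went the same way for 3 members. All 6 Nfia probe sets were lower in the p53 het cultures (3 called, from -2.04 to -0.26) and all 7 Nfib probe sets were lower (6 called, from -1.89 to -0.59). All 5 Nfic probe sets were higher (1 called, from 0.46 to 0.81). For Nfix 4 of 5 were higher, none was called, and the values ran from -0.33 to 0.28. Of all single-symbol probe sets, 23.8% were called in this comparison. Probe sets of a gene share the same RNA and are no replicates.

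**Figure D2:**
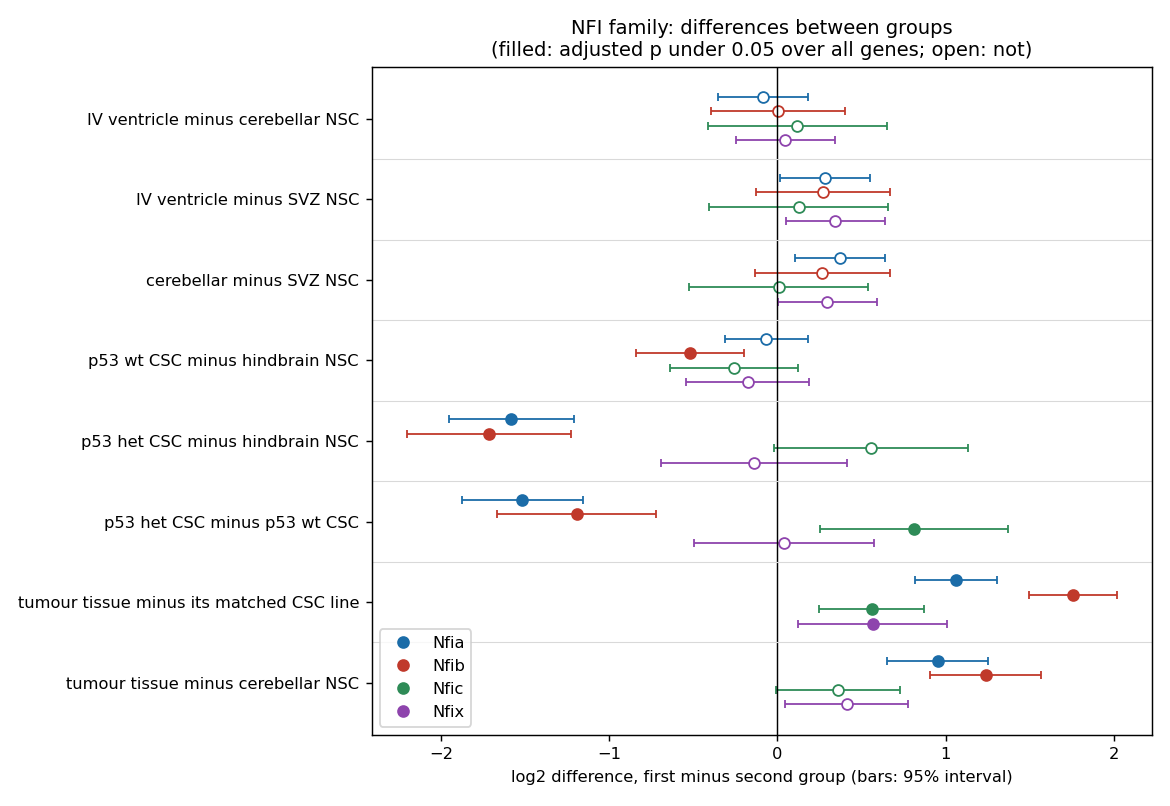
Log2 difference (horizontal axis, first group minus second) of each NFI gene in 8 comparisons, with the 95% interval from limma; filled points passed an adjusted p of 0.05 over all genes and open points did not. Nfia and Nfib lie below 0 in both comparisons of the p53 het cultures (-1.71 to -1.19) and above 0 in both comparisons of tumour tissue (0.95 to 1.76).

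The chromosomes give a further measurement beside this comparison. Over the brighter genes of chromosome 4, which carries Nfia and Nfib, the median difference between p53 het and p53 wt cultures was -0.089, and over all brighter genes it was -0.045. On chromosome 8, which carries Nfix, the median was 0.31, with 188 genes called higher and 33 lower of 510. Calr, Gadd45gip1 and Dand5, the 3 genes next to Nfix on one side, were higher by 0.59, 0.81 and 0.73. On its other side Trmt1 was higher by 0.57, while Nacc1 (0.088) and Lyl1 (-0.078) were not called. On chromosome 10, which carries Nfic, the median was -0.0058. The part of the chromosome's shift in the value of Nfix was not tested.

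2310067E19Rik, a transcript next to Nfib on chromosome 4, had the same direction as Nfib. It was lower in the p53 het cultures by -2.32 (limma, adjusted p = 3.28e-08) and higher in tumour tissue than in the lines by 1.90 (adjusted p = 1.57e-06). Gm11266 and Gm11267, on the same side of Nfib as this transcript, differed by -0.20 each in the p53 het cultures and were not called. Lurap1l and Mpdz, on the other side of Nfib, differed by 0.45 and 0.10 in the p53 het cultures and were not called. In tissue, Lurap1l (1.15), Mpdz (0.47), Gm11266 (2.78) and Gm11267 (3.12) were called higher than in the lines. E130114P18Rik, next to Nfia, differed by -0.23 in the p53 het cultures (not called) and by 2.07 in tissue (adjusted p = 9.44e-06). Of the other 5 genes around Nfia, Tm2d1 (0.81, adjusted p = 0.000358) and Cyp2j9 (1.25, adjusted p = 0.0217) were called higher in the p53 het cultures. In tissue Tm2d1 was called higher (0.37) and Cyp2j9 lower (-1.94). Whether a neighbouring probe set reads an extended transcript of the NFI gene was not tested.

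The third comparison set each tumour's tissue against the CSC line grown from it. All 4 members were higher in the tissue, where 49.6% of all genes were called and 4202 of 9033 calls were higher. Nfib rose in 8 of 8 tumours, from 8.53 to 9.24 in the lines (median 8.73) to 10.23 to 10.98 in the tissues (median 10.51). The groups do not overlap, and the smallest gain, in tumour 92, was 1.07. The mean difference was 1.76 ± 0.12 (3.38-fold, limma with the tumour as a block, adjusted p = 9.54e-07).

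Nfia also rose in 8 of 8 tumours, from 9.09 to 9.73 in the lines (median 9.54) to 10.16 to 10.85 in the tissues (median 10.58), without overlap. Its difference was 1.06 ± 0.11 (2.09-fold, limma, adjusted p = 1.96e-05), with the highest gain in tumour 49 (1.76) and the lowest in tumour 92 (0.61).

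Nfic had 6.49 to 7.55 in the lines and 7.31 to 7.86 in the tissues, and was higher in 7 of 8 tumours (0.56 ± 0.14, 1.47-fold, limma, adjusted p = 0.00699). Tumours 91 and 92 hardly moved (0.025 and -0.023). Nfix had 8.24 to 9.51 in the lines and 9.20 to 10.05 in the tissues, and was higher in 6 of 8 (0.57 ± 0.20, 1.48-fold, limma, adjusted p = 0.037). Tumours 92 and 83 were lower in tissue, by -0.22 and -0.12, and tumours 49 and 77 had the widest gains (1.77 and 1.18).

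The calls differed in how much they rested on single tumours. Those of Nfia and Nfib held in all 17 alternatives. That of Nfix was lost when tumour 74, 91, 9, 49, 68 or 77 was left out (0.39 to 0.59, adjusted p = 0.0574 to 0.0894), and when arrays were centred on their medians (0.48, adjusted p = 0.0621). Within the 4 tumours whose line carries one date mark the difference was 0.87 for Nfia, 1.69 for Nfib, 0.41 for Nfic and 0.30 for Nfix. Within the 4 tumours of the other it was 1.25, 1.82, 0.71 and 0.83. In the first set the tissues carry the same mark as their lines. In the second set they carry other marks, so tissue and mark cannot be told apart there. The calls of Nfia and Nfib held in each set of 4, that of Nfic in the second set (adjusted p = 0.0255), and that of Nfix in neither.

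**Figure D3:**
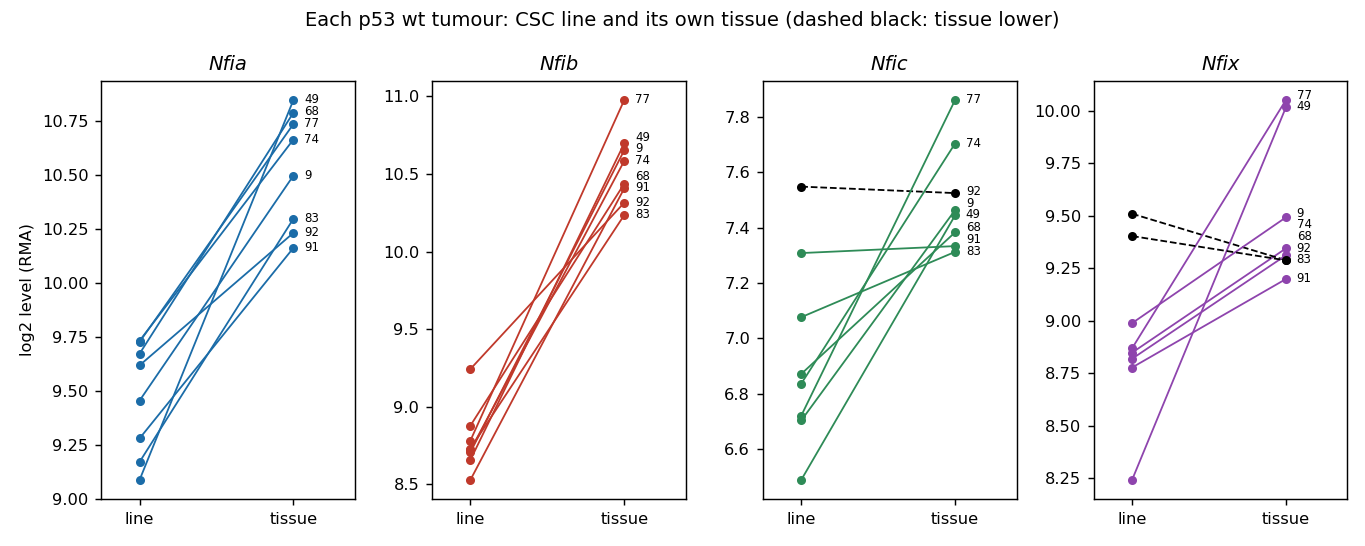
Log2 level (vertical axis) of each NFI gene in the CSC line and the tissue of each p53 wt tumour, joined by a line and marked with the tumour's name; dashed black lines mark tumours in which the tissue was lower. Nfia and Nfib rose in 8 of 8 tumours, Nfic in 7 of 8 and Nfix in 6 of 8.

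Nfib moved most within the family here. Its gain exceeded that of Nfia by 0.70, that of Nfic by 1.20 and that of Nfix by 1.19, each in 8 of 8 tumours (exact sign-flip permutation test, two-sided, p = 0.00781, the smallest that 8 pairs allow, adjusted p = 0.0352). The gain of Nfia exceeded that of Nfic by 0.50 in 7 of 8 tumours (exact permutation test, adjusted p = 0.0422) and that of Nfix by 0.49 in 6 of 8 (adjusted p = 0.0469). Nfic and Nfix differed by -0.0069 (exact permutation test, adjusted p = 0.945).

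All 6 probe sets of Nfia (0.91 to 1.54) and all 7 of Nfib (1.23 to 2.31) were called higher in tissue, where 48.3% of all single-symbol probe sets were called. For Nfic 4 of 5 were higher and 1 was called, and for Nfix 4 of 5 were higher and 3 were called. The 3 probe sets of these genes with mean levels under 2.8 were not called and went both ways, with 0.64 (1422565_s_at of Nfic), -0.10 (1427665_a_at of Nfic) and -0.11 (1451443_at of Nfix).

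**Figure D4:**
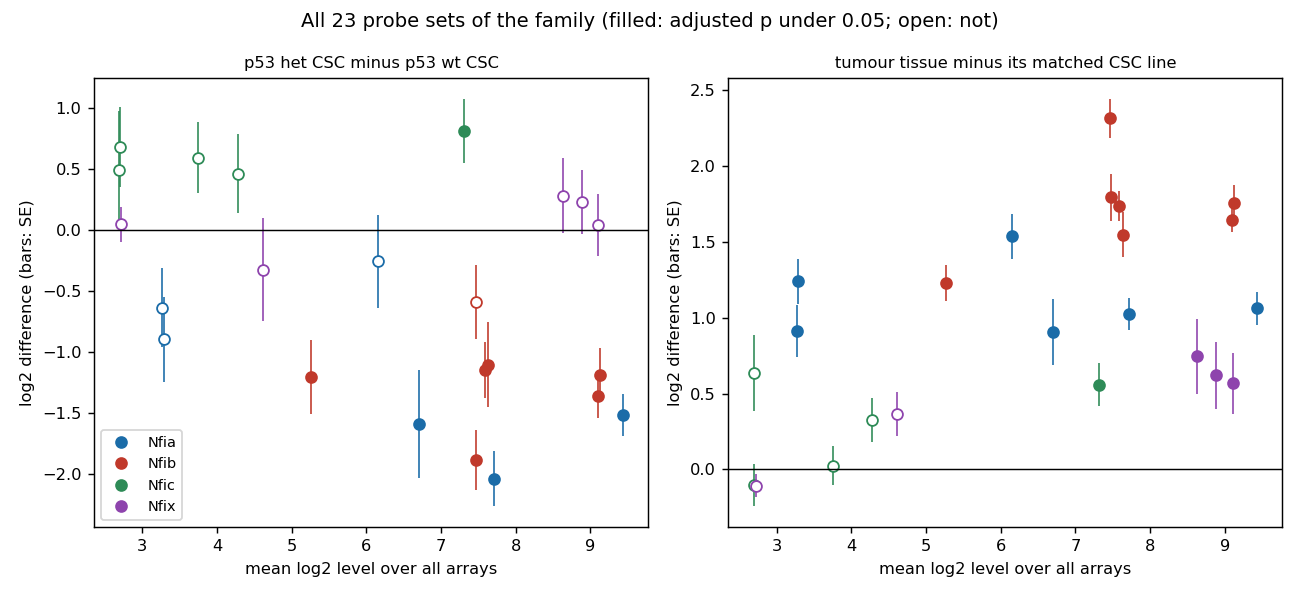
Log2 difference (vertical axis, bars 1 SE) of all 23 NFI probe sets against their mean log2 level over all arrays (horizontal axis), for p53 het against p53 wt cultures (left) and tumour tissue against its line (right); filled points passed an adjusted p of 0.05 over all probe sets. All 13 probe sets of Nfia and Nfib lie below 0 on the left and above 0 on the right.

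Tissue was also compared with cerebellar NSC, which shares the tissue samples with the comparison above and is confounded with culture and date mark. Nfia was higher by 0.95 ± 0.14 (limma, adjusted p = 3e-05) and Nfib by 1.24 ± 0.16 (adjusted p = 4.74e-06). Nfic (0.36, adjusted p = 0.102) and Nfix (0.41, adjusted p = 0.0611) were not called. Thus 2 of 4 members passed, where 46% of all genes did. Each tissue lay above each cerebellar culture for Nfic and Nfix, and the share of all genes without overlap was not counted.

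Markers of several other cell types were higher in the tissue as well. All 4 granule neuron precursor markers were called higher in tissue than in the lines (median difference 5.61). So were 5 of 5 microglia markers (3.81), 4 of 4 endothelial markers (0.81) and 3 of 4 mature neuron markers (2.92). Of the astrocyte markers 4 of 6 were called higher (1.84), and of the oligodendrocyte markers 2 of 3 (0.69). Of 2 red blood cell markers none was called. Over all genes 49.6% were called, with 4202 of 9033 calls higher, and the median was -0.063. The microglial Aif1 lay at 1.24 to 1.64 in the lines, near the background of unexpressed genes, and at 4.64 to 5.70 in the tissue. Of the neural stem cell markers 3 of 5 were called lower in tissue and 2 called higher. In bulk RNA, more cells of a type that expresses a gene and more RNA of that gene per cell cannot be told apart, and the part of cell makeup in the higher NFI levels was not tested.

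No member's level in a line had a relation to its tissue that passed the test. Across the 8 tumours, Pearson's r between line and tissue was 0.24 for Nfia (permutation p = 0.554), -0.27 for Nfib (p = 0.516), -0.28 for Nfic (p = 0.507) and -0.57 for Nfix (p = 0.146), with an adjusted p of 0.554 for each. Spearman's rho ran from -0.31 to 0.12 (adjusted permutation p = 0.793 for each). Without the 2 lines farthest from the median, r was 0.75 for Nfia, -0.13 for Nfib, -0.28 for Nfic and -0.13 for Nfix. Within the 4 tumours of each date mark, r was 0.65 and 0.34 for Nfia -0.54 and -0.11 for Nfib, -0.34 and -0.39 for Nfic, and 0.031 and -0.67 for Nfix.

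Among the tissues, Nfib and Nfix rose and fell together. Their Pearson's r over 8 tissues was 0.85 (permutation p = 0.00117, adjusted over 12 pairs p = 0.014) and Spearman's rho 0.93 (permutation p = 0.00223, adjusted p = 0.0268). Without the 2 tissues farthest from the median r was 0.76. The tissues of tumours 49 and 77 share a date mark and had the highest Nfix (10.02 and 10.05, against 9.20 to 9.49 in the other 6) and the highest Nfib (10.70 and 10.98). Without them r was 0.72 and rho 0.83 (n = 6). None of the other 11 pairs passed, either in tissue or in lines; the highest in the lines was Nfic with Nfix (r = 0.72, permutation p = 0.0452, adjusted p = 0.175, rho 0.40).

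Genes linked to the family were taken from 4 lists: 9 measured regulators and partners, 12 glial genes, 6 granule neuron genes and 4 genes known to be repressed through NFI. The lists were written with earlier results of these data known. Between p53 het and p53 wt cultures 6 of 9 regulators were called, 1 higher and 5 lower, with a median of -0.91 beside 0.031 over all genes, of which 26.3% were called. SOX9 induces Nfia in the embryonic spinal cord and acts with it in early gliogenesis. Sox9 lay at 6.55 to 7.97 in the p53 wt lines and at 3.06 and 4.59 in the p53 het cultures (-3.55 ± 0.36, limma, adjusted p = 1.24e-06).

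SOX10, which opposes NFIA in the choice between astrocytes and oligodendrocytes, went in the opposite direction. Sox10 lay at 3.73 to 5.48 in the p53 wt lines and at 9.59 and 10.53 in the p53 het cultures (5.83 ± 0.36, limma, adjusted p = 2.95e-09). Of the oligodendrocyte markers 1 of 3 was called higher, Mbp, at 4.65 and 5.43 beside 3.42 to 3.99 in the lines. Mog, another myelin gene, was at 1.03 and 1.17, near that background. Olig2 (-1.50 ± 0.17), Notch1 (-1.34 ± 0.25), Zbtb20 (-0.93 ± 0.18) and Ski (-0.72 ± 0.15) were lower.

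Of the 12 glial genes, 7 were called between p53 het and p53 wt cultures, 2 higher and 5 lower (median -0.78), beside 26.3% of all genes. Fabp7, the radial glial fatty acid-binding protein whose promoter with 1 core is shown above, lay at 12.14 to 12.70 in the p53 wt lines and at 10.19 and 10.73 in the p53 het cultures (-1.97 ± 0.17, limma, adjusted p = 2.28e-07). Hepacam, a cell adhesion protein of astrocytes with 2 cores in its window, lay at 6.80 to 8.09 and at 3.60 and 6.35 (-2.69 ± 0.45, limma, adjusted p = 0.000257). The glutamate transporters Slc1a3 (-1.88 ± 0.33) and Slc1a2 (-3.41 ± 0.66) were lower, as was Zcchc24 (-1.34 ± 0.20). Apcdd1, a Wnt inhibitor reported as a target of NFIA and SOX9, was higher by 2.47 ± 0.33, and S100b by 2.13 ± 0.64.

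1 of 6 granule neuron genes passed in this comparison, beside 26.3% of all genes. It was Cdh2 (N-cadherin), lower by -1.40 ± 0.23. Among the 4 genes repressed through NFI, 2 were called (26.3% of all genes were) and both were lower: Hes1, a Notch effector, by -2.21 ± 0.38, and Ezh2, the Polycomb methyltransferase, by -0.60 ± 0.16. Of the 5 neural stem cell markers 4 were called, all lower. Of the 6 astrocyte markers 2 were called, S100b higher and Slc1a2 lower, and the median over the 6 was -0.34. Gja1, a gap junction protein of astrocytes, differed by -3.03 and was not called, with 1.19 and 7.47 in the 2 p53 het cultures.

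Between tissue and line the linked genes moved in both directions. All 9 regulators were called, 4 higher and 5 lower, where 49.6% of all genes were called. Pax6, expressed in granule neuron precursors, rose by 2.87 ± 0.10 and Zbtb20 by 1.46 ± 0.10, while Notch1 fell by 4.23, Olig2 fell by 3.85 and Sox9 fell by 1.30 on the log2 scale. Of 12 glial genes 10 were called, 5 higher and 5 lower, beside the same 49.6%. Aqp4, the water channel of mature astrocytes, lay at 1.74 to 2.03 in the lines and 6.35 to 9.42 in the tissues, and Gfap at 2.74 to 4.22 and 4.76 to 8.52. Apcdd1 was higher by 3.83 ± 0.15. Hepacam (-2.88 ± 0.21), Zcchc24 (-2.83 ± 0.10) and Fabp7 (-2.27 ± 0.11) were lower in tissue.

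Slc1a2, another glial gene, was higher in tissue by 1.61 ± 0.36 (limma, adjusted p = 0.0036). Both comparisons share the p53 wt lines. Among the linked genes called in both, Slc1a2, Zbtb20 and Ezh2 were, like Nfia and Nfib, lower in the p53 het cultures and higher in tissue. Ezh2 is from the list of repressed genes. Others were lower in both (Sox9, Olig2, Notch1, Ski, Hes1, Hepacam, Fabp7, Zcchc24 and Slc1a3). Sox10 and Apcdd1 were higher in both. Of the granule neuron genes 2 of 6 were called, both higher in tissue, beside 49.6% of all genes. They were the adhesion molecule Cntn2 (4.80 ± 0.15) and the receptor subunit Gabra6 (3.25 ± 0.81). Gabra6 ranged from 1.51 to 8.28 among the tissues and overlapped with the lines. Of the 4 repressed genes 3 were called, beside 49.6% of all genes. Bbx (0.87 ± 0.12) and Ezh2 (0.28 ± 0.10) were higher and Hes1 was lower (-2.01 ± 0.21).

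**Figure D5:**
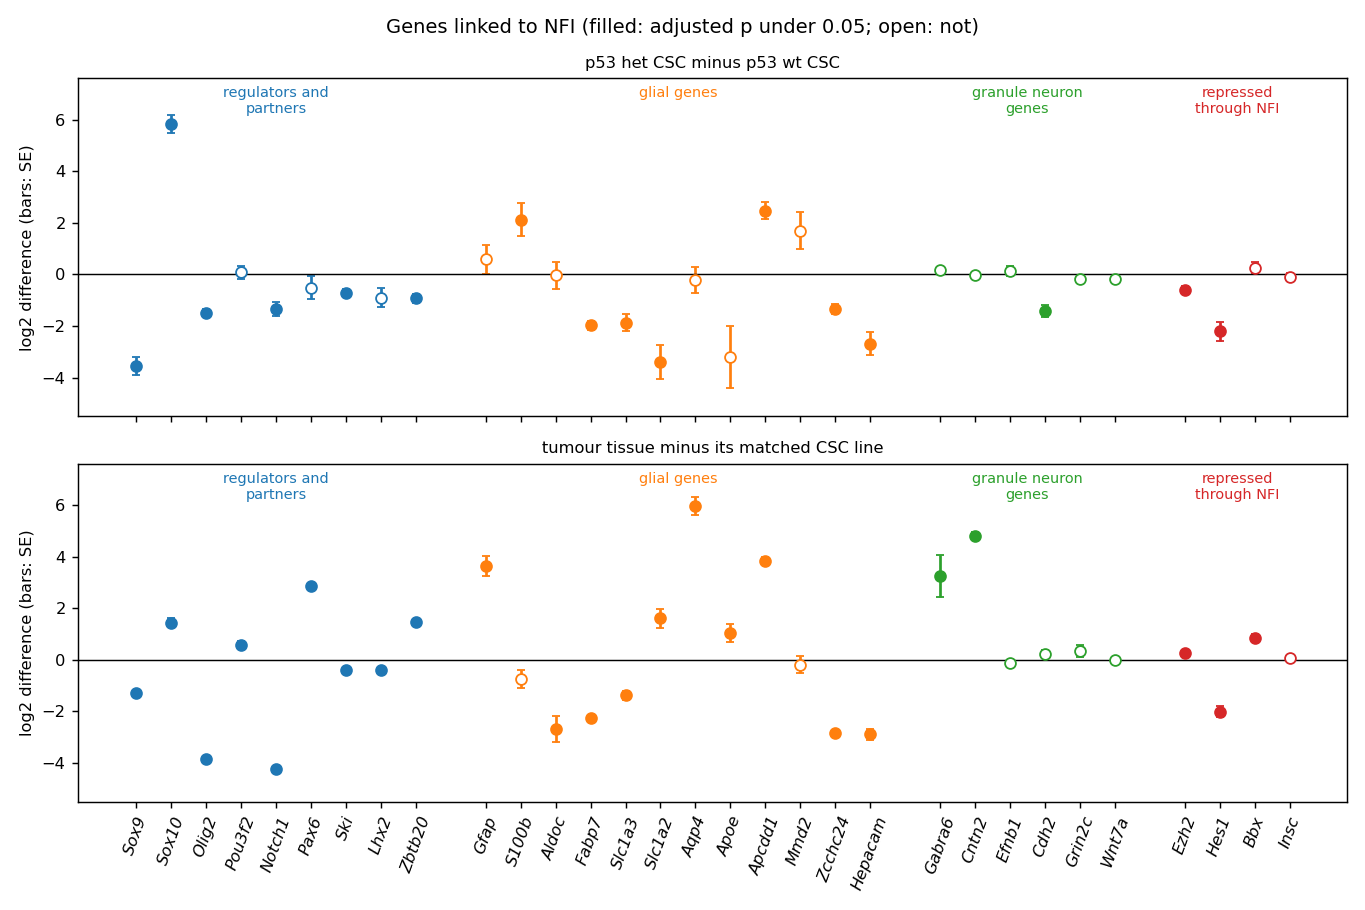
Log2 difference (vertical axis, bars 1 SE) of the linked genes by list, for p53 het against p53 wt cultures (top) and tumour tissue against its line (bottom); filled points passed an adjusted p of 0.05 over all genes. Sox10 (5.83) and Sox9 (-3.55) lie at opposite ends at the top, and Aqp4 (5.97) and Notch1 (-4.23) at the bottom.

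In p53 wt lines against hindbrain NSC, where Nfib alone of the family was called, 3 of 9 regulators and 2 of 12 glial genes passed, beside 9.56% of all genes, and none of the 10 granule neuron and repressed genes did. Lhx2, a forebrain patterning factor, was higher by 2.82 ± 0.25, Pax6 by 1.10 ± 0.31 and Sox9 by 0.94 ± 0.25. S100b was higher by 2.71 ± 0.44 and Aqp4 lower by -2.06 ± 0.35. Lhx2 was also the sole linked gene called between NSC regions, lower by -3.88 in IV ventricle and by -3.94 in cerebellar cultures than in SVZ cultures.

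The genes most like each member were found by Pearson's r over the 19 cultures, as a description. The p53 het cultures stand apart and carry part of these values, so r within the 8 p53 wt lines is given beside them. Nfia was most like Nol4 (0.96, and 0.90 within the lines), Npepps (0.93 and 0.75), Wdr37 (0.93 and 0.64), Spry2 (0.93 and 0.56), an inhibitor of receptor tyrosine kinase signalling, and Nsg1 (0.93 and 0.13). Nfib was most like Trim8 (0.95 and 0.40), Rassf3 (0.95 and 0.35), the chromatin remodeller Chd7 (0.95 and 0.70), Nab2 (0.94 and 0.44) and Eif4g3 (0.93 and 0.60).

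For Nfic the values were lower, led by the adaptor protein Bcar1 (0.81 and 0.70), Txndc5 (0.79 and 0.76), Fcor (0.79 and 0.77), Rnf216 (0.79 and 0.38) and the corepressor Bcor (0.78 and 0.79). Nfix was most like Nav1, a microtubule-binding protein (0.88 and 0.88), followed by Abhd2 (0.82 and 0.85), Dhx34 (0.75 and 0.81), Itpkb (0.74 and 0.79) and Defb1 (0.74 and 0.75). Fcor and Defb1 had means of 1.81 to 2.62 in all groups of cultures, close to the background of unexpressed genes. Among the members themselves r over the 19 cultures was 0.83 for Nfia with Nfib and 0.60 for Nfic with Nfix, and 0.48 and 0.72 within the p53 wt lines.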

How the data were processed

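The authors deposited 1 log2 intensity per probe set and array, made with RMA per the submitters' processing notes. No source used here states the RMA version, the probe set definition or a genome build. RMA equalizes the distributions of the arrays, so a shift shared by all genes would not be seen. Of 45101 probe sets, 932 had several gene symbols and 9211 had none in the platform annotation, and these were not analysed here. The rest gave 18194 genes, each read from its brightest probe set. Averaging the technical replicates left 27 samples. Their number limits the precision, and where nothing says that cultures came from separate animals, p-values cover the spread between these samples alone.

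limma 3.58.1 in R 4.3.3 (lmFit, eBayes, two-sided) was fitted over all genes with Benjamini-Hochberg adjustment and a threshold of 0.05. The 9 NSC shared a fit (6 residual degrees of freedom), the 19 cultures another (14), lines and tissues were blocked by tumour (7), and tissue and NSC had a fit of their own (13). The fits were tested on simulated data with normal noise of equal spread in all groups and no effect of a date mark. That test does not cover unequal spread or date marks. Deviations from the region means were correlated between NSC of the same replicate number. The r was 0.25 to 0.32 between IV ventricle and SVZ cultures and 0.17 to 0.34 between cerebellar and SVZ cultures. Between IV ventricle and cerebellar cultures it was -0.14 to 0.38. Cultures of different numbers were not compared and the numbers partly follow the date marks, so these values do not show a pairing. Alternatives changed the scaling, the filter on dim genes, the probe set, the variance prior, the reference, the blocks, the date marks and the samples. Members, gene lists and comparisons were chosen with earlier results of these data known. Named genes were the members, called genes of the lists (up to 4 per list and comparison by smallest p, plus genes that a result turned on) and the 5 most alike genes without predicted or clone symbols. Neighbouring genes and chromosome medians (over genes brighter than the median gene) were chosen after the values were seen. Promoters were searched with Python 3.11.15 and figures drawn with matplotlib 3.10.9.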

Additional observations from a re-analysis of the deposited data

How the results depend on the processing

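The alternatives covered array scaling, the filter on dim genes, the probe set, the variance prior, the samples and reference of the fit, blocks, date marks and leaving out each sample. No call of Nfia changed in any of them, and Nfib in tissue kept its call in all 17 against the line and all 20 against cerebellar NSC. The cause of each change below was not tested. With the mean of all probe sets, differences were 0.092 (Nfia) and -0.043 (Nfib) between IV ventricle and cerebellar NSC, -0.041 (Nfic, cerebellar minus SVZ), 0.11 (Nfia) and -0.23 (Nfib, adjusted p = 0.38) for p53 wt lines minus hindbrain NSC, 0.61 (Nfic, p53 het minus p53 wt, adjusted p = 0.187) and 0.29 (Nfic, tissue minus line, adjusted p = 0.121). On that scale Nfia minus Nfib turned to 0.057 between p53 het and p53 wt cultures, Nfib minus Nfic to 0.14 and Nfib minus Nfix to 0.13 between p53 wt lines and hindbrain NSC, and the correlation of Nfib between line and tissue to 0.089. With the second brightest probe set, values were 0.22 (Nfia), -0.11 (Nfib) and -0.022 (Nfix) for IV ventricle minus cerebellar NSC, 0.044 (Nfia) and -0.40 (Nfib, adjusted p = 0.0629) for p53 wt lines minus hindbrain NSC, -0.036 (Nfic, p53 het minus hindbrain NSC), 0.46 (Nfic, p53 het minus p53 wt, adjusted p = 0.386), 0.33 (Nfic, tissue minus line, adjusted p = 0.098) and -0.089 (Nfic, tissue minus cerebellar NSC).

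Quantile normalization turned Nfib between IV ventricle and cerebellar NSC to -0.025 and Nfic minus Nfix in tissue to 0.0037. Centring on medians turned Nfic between cerebellar and SVZ NSC to -0.0042 and gave 0.48 for Nfix in tissue minus line (adjusted p = 0.0621). With a block on the date mark, IV ventricle minus cerebellar NSC was -0.17 (Nfib), -0.015 (Nfic) and -0.014 (Nfix), and IV ventricle minus SVZ NSC was -0.0087 (Nfic). For Nfib in p53 wt lines, the random block gave -0.53, the IV ventricle reference -0.522, the cerebellar one -0.519, the SVZ one -0.25, and the tumours of each date mark -0.50 and -0.54. With the SVZ as reference Nfia in these lines was 0.26 and Nfix 0.14, and Nfix in p53 het cultures 0.18. Nfic in p53 het minus p53 wt was 0.81 with the compared arrays alone (adjusted p = 0.0514), 0.63 with the first technical replicates (adjusted p = 0.0897) and 0.66 with the first date mark (adjusted p = 0.117), where Nfix was -0.060. Tissue minus line was 0.41 (Nfic) and 0.30 (Nfix) within the first date mark and 0.83 (Nfix) within the second. Tissue minus cerebellar NSC gained calls for Nfic with the compared arrays alone (0.36, adjusted p = 0.0235) and for Nfix without dim genes (0.41, adjusted p = 0.047) or in the second date mark (0.58, adjusted p = 0.027).

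Leaving out 1 sample gave ranges of -0.17 to 0.0033 (Nfia), -0.21 to 0.16 (Nfib), -0.071 to 0.33 (Nfic) and -0.051 to 0.15 (Nfix) for IV ventricle minus cerebellar NSC, and for Nfic -0.11 to 0.34 between IV ventricle and SVZ and -0.23 to 0.22 between cerebellar and SVZ NSC. For p53 wt lines minus hindbrain NSC, Nfib ran from -0.60 to -0.41. For p53 het minus p53 wt, Nfib ran from -1.72 to -0.66, Nfic from 0.49 to 1.135 and Nfix from -0.41 to 0.49, and for p53 het minus hindbrain NSC Nfix ran from -0.59 to 0.31. Nfix in tissue ran from 0.39 to 0.68 against the line and from 0.33 to 0.46 against cerebellar NSC, and the line and tissue correlation of Nfib from -0.44 to 0.15. The replicate block changed no call of a member. With this block Nfix differed by 0.34 between IV ventricle and SVZ cultures (limma, adjusted p = 0.189).

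Counts over all genes moved more. IV ventricle minus SVZ NSC went from 139 to 90 with the second probe set and to 51 to 181 without 1 sample. Cerebellar minus SVZ NSC went from 201 to 123 (second probe set), 349 (compared arrays alone), 728 (date mark as a block) and 61 to 245 (without 1 sample), and IV ventricle minus cerebellar NSC from 0 to 9 with the date mark and 0 to 7 without 1 sample. p53 wt lines minus hindbrain NSC went from 1740 to 820 with the random block, 593, 673 and 1064 with the IV ventricle, cerebellar and SVZ references, 1003 in the second date mark and 1060 to 1896 without 1 sample. Tissue minus line went from 9033 to 5935 in the second date mark. Probe sets of Nfic other than the one reported were dim, with mean levels under 4.3, and 2 p53 het tumours limit what can be said of that genotype.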
